A study of Mus musculus with 2 samples.

Results

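The transcripts described here came from 43 cell cycle genes, chosen by symbol from the 31053 genes of the count tables. They comprised 18 S-phase genes, which serve DNA replication and nucleotide supply, and 25 mitotic genes, which serve chromosome segregation and cytokinesis. Single-cell RNA sequencing (scRNA-seq, 10x 3′ v.3 chemistry) was performed on cells taken from gingiva and from the surface of alveolar bone in C57BL/6 WT mice aged 8 weeks. One library was made from untreated control mice and 1 from mice with ligature-induced periodontitis (LIP), in which a thread tied around a molar gathers bacteria and causes bone loss, taken 7 days after ligation. The cells of 5 mice were pooled for the LIP library as the study describes, and the number of mice behind the control library was not given in the sources used here. With 1 library per condition there was no replicate, so library and condition cannot be told apart, no test between conditions was possible, and all intervals below are exact 95% intervals that cover counting error only, while the limit given for a count of 0 is 3 counts over the total.

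Cells that divide copy their DNA in S phase and separate it in mitosis, and both steps need proteins that resting cells make little of. Before replication the MCM helicase is loaded at origins with the help of Cdc6, and the clamp protein Pcna, the ribonucleotide reductase subunits and the enzymes of thymidine nucleotide synthesis then serve the moving forks. In mitosis the cyclin B and Cdk1 kinase condenses chromosomes, the checkpoint kinases hold anaphase back until chromosomes are attached, and Cdc20 with Ube2c directs the destruction of the cyclins. In the gingiva the basal keratinocytes renew the epithelium throughout life, whereas vessels, pericytes and bone-forming cells of an adult mouse divide little at rest. *Mki67*, *Top2a* and *Ccna2*, counted here as mitotic, are already transcribed in late S phase, and *Pcna* and *Slbp* are also transcribed in many cells that do not divide.

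Among 1212 LIP and 1169 control barcodes, 936 and 883 were kept, with 10560109 and 13407122 unique molecular identifiers (UMIs) and a median of 5595 and 10845 UMIs per cell. Cells were clustered without the cell cycle genes and the clusters were named from marker genes, hence the ending "-like". The 2 largest sets were epithelial-like (116 LIP and 246 control cells) and neutrophil-like (325 and 56), followed by macrophage-like (84 and 42), vascular endothelial-like (81 and 48), mural-like (46 and 46), osteogenic-like (63 and 120), T-like (27 and 54), B-like (20 and 160) and Schwann-like cells (102 and 37). The osteogenic-like class joined a sub-cluster led by the bone genes *Bglap* and *Ibsp* (32 LIP and 20 control cells) to one led by the fibroblast genes *Mfap4* and *Clec3b* (24 and 89) and a small one led by *Cytl1*, so its makeup differed between the libraries. Likewise 277 of 325 LIP neutrophil-like cells, but 29 of 56 control cells, lay in the sub-cluster led by *Acod1* and *Ccl3*, and the others in one led by the granule genes *Ngp* and *Camp*. Among B-like cells 9 of 20 in LIP but 7 of 160 in control lay in a sub-cluster led by *Vpreb3* and *Cd79b*. One epithelial-like sub-cluster (14 LIP and 48 control cells) was led by *Aspm*, *Pbk* and *Lockd*, which are themselves cell cycle genes that were not among those left out, and had no epithelial marker among its 10 leading genes. The libraries shared 2 barcodes, of which 1 was kept in both, and the doublet caller marked 1 LIP and 4 control cells, which were kept.

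The kept LIP cells held 9799 mitotic and 4810 S-phase UMIs and the kept control cells 21235 and 6471, which is 928 and 455 UMIs per 1000000 UMIs (CPM) in the LIP library and 1584 and 483 CPM in the control library. Epithelial-like cells carried 88.1% of the control library's mitotic UMIs and 56.1% of those of the LIP library. Their mitotic level, summed over the 25 genes, was the highest of all classes in both libraries, at 1994 CPM (1941 to 2047) in LIP and 2660 CPM (2622 to 2698) in control. In the control library, neutrophil-like (1317 CPM), T-like (1246 CPM) and B-like cells (912 CPM) followed, the first pair with overlapping intervals. Unnamed and erythroid-like cells stood at 210 and 199.9 CPM with overlapping intervals, macrophage-like cells at 115 CPM, and vascular endothelial-like, osteogenic-like and mural-like cells at 40.6, 39.5 and 30.5 CPM. The mural-like interval, 18.1 to 48.1 CPM, overlapped that of mucous or salivary-like cells, the lowest class, at 20.5 CPM (10.9 to 35.1) in 16 deeply sequenced cells with a median of 36562 UMIs. In the LIP library that class held 8.84 CPM, and the level of free RNA itself was not measured.

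The LIP library kept epithelial-like cells on top but ranked the other classes differently. Erythroid-like cells reached 1683 CPM in only 10 cells, B-like cells 1094 CPM, vascular endothelial-like cells 921 CPM, T-like cells 761 CPM and macrophage-like cells 617 CPM. Mural-like cells followed at 542 CPM (489 to 600), osteogenic-like cells at 464 CPM and neutrophil-like cells at 440 CPM (408 to 473). The intervals of neighbours overlapped between B-like and vascular, vascular and T-like, macrophage-like and mural-like, mural-like and osteogenic-like, and osteogenic-like and neutrophil-like cells, so their order was not resolved. Separate intervals did not resolve the order of the others either, since single cells held much of these sums. Without the highest cell of each class, T-like cells stood at 253 CPM, macrophage-like cells at 346 CPM and B-like cells at 152 CPM. Schwann-like cells stayed low in both libraries, with 66.4 CPM (44.5 to 95.4) in LIP and 46.0 CPM (19.8 to 90.6) in control. The plot of summed levels by class shows the vessel and bone classes leaving the bottom of the control order.

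**Figure D1:**
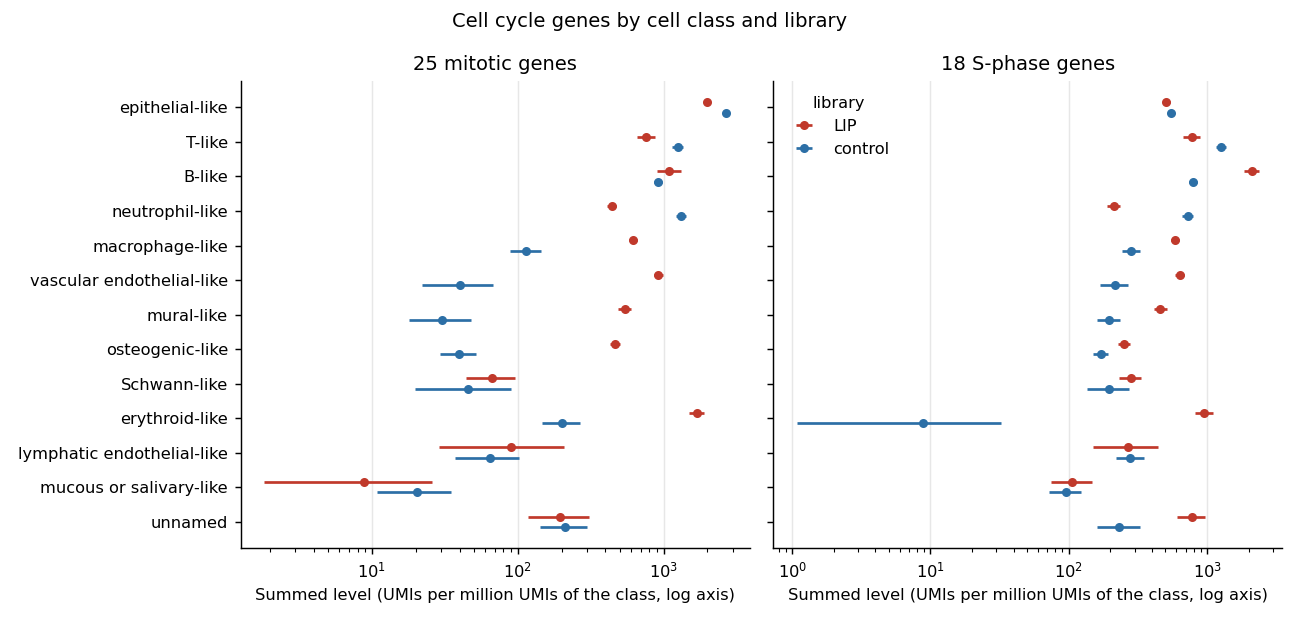
Summed CPM of the 25 mitotic genes and of the 18 S-phase genes (log axes) in each of 13 cell classes, LIP library in red and control library in blue, with exact 95% Poisson intervals as bars. Mitotic levels of vascular endothelial-like, mural-like and osteogenic-like cells sit between 30.5 and 40.6 CPM in control and between 464 and 921 CPM in LIP, while epithelial-like cells are highest in both.

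S-phase transcripts, which include those of broadly expressed genes, were present in every class. The summed S-phase level ran from 94.8 CPM in mucous or salivary-like cells to 1258 CPM in T-like cells of the control library, leaving out the 12 erythroid-like cells, which held 2 S-phase UMIs (8.89 CPM). In the LIP library it ran from 106 CPM in mucous or salivary-like cells to 2098 CPM in B-like cells. The number of S-phase UMIs per mitotic UMI therefore differed strongly between classes. In control cells this ratio was 0.207 in epithelial-like, 0.550 in neutrophil-like, 0.872 in B-like and 1.01 in T-like cells, but 4.30 in osteogenic-like, 5.29 in vascular endothelial-like and 6.39 in mural-like cells. In LIP cells the ratio fell below 1 in each of the last 3 classes, to 0.544, 0.686 and 0.848.

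Member by member, the class with the highest level differed between mitotic and S-phase genes, though few cells held much of several class sums. Of the 25 mitotic genes, 21 were highest in epithelial-like cells of the control library, whereas in LIP 11 were highest in erythroid-like, 8 in epithelial-like and 4 in B-like cells. Of the 18 S-phase genes, 8 were highest in T-like and 5 in B-like cells of the control library, and 13 in B-like cells of the LIP library. Most of these LIP B-like UMIs came from a single cell, described with the B-like cells below. The erythroid-like lead in LIP rested on 2 of 10 cells, which held 179 and 115 of 315 mitotic UMIs. In control, cells with 139, 109 and 93 of the 554 S-phase UMIs weighed most in the T-like class, and a cell with 256 of 831 in the B-like class. The map of all genes by class shows the mitotic genes as a block with high levels in epithelial-like cells. The same genes are low or without UMIs in control vessel and bone cells. *Pcna*, *Slbp*, *Tyms* and *Rrm1* are present nearly everywhere.

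**Figure D2:**
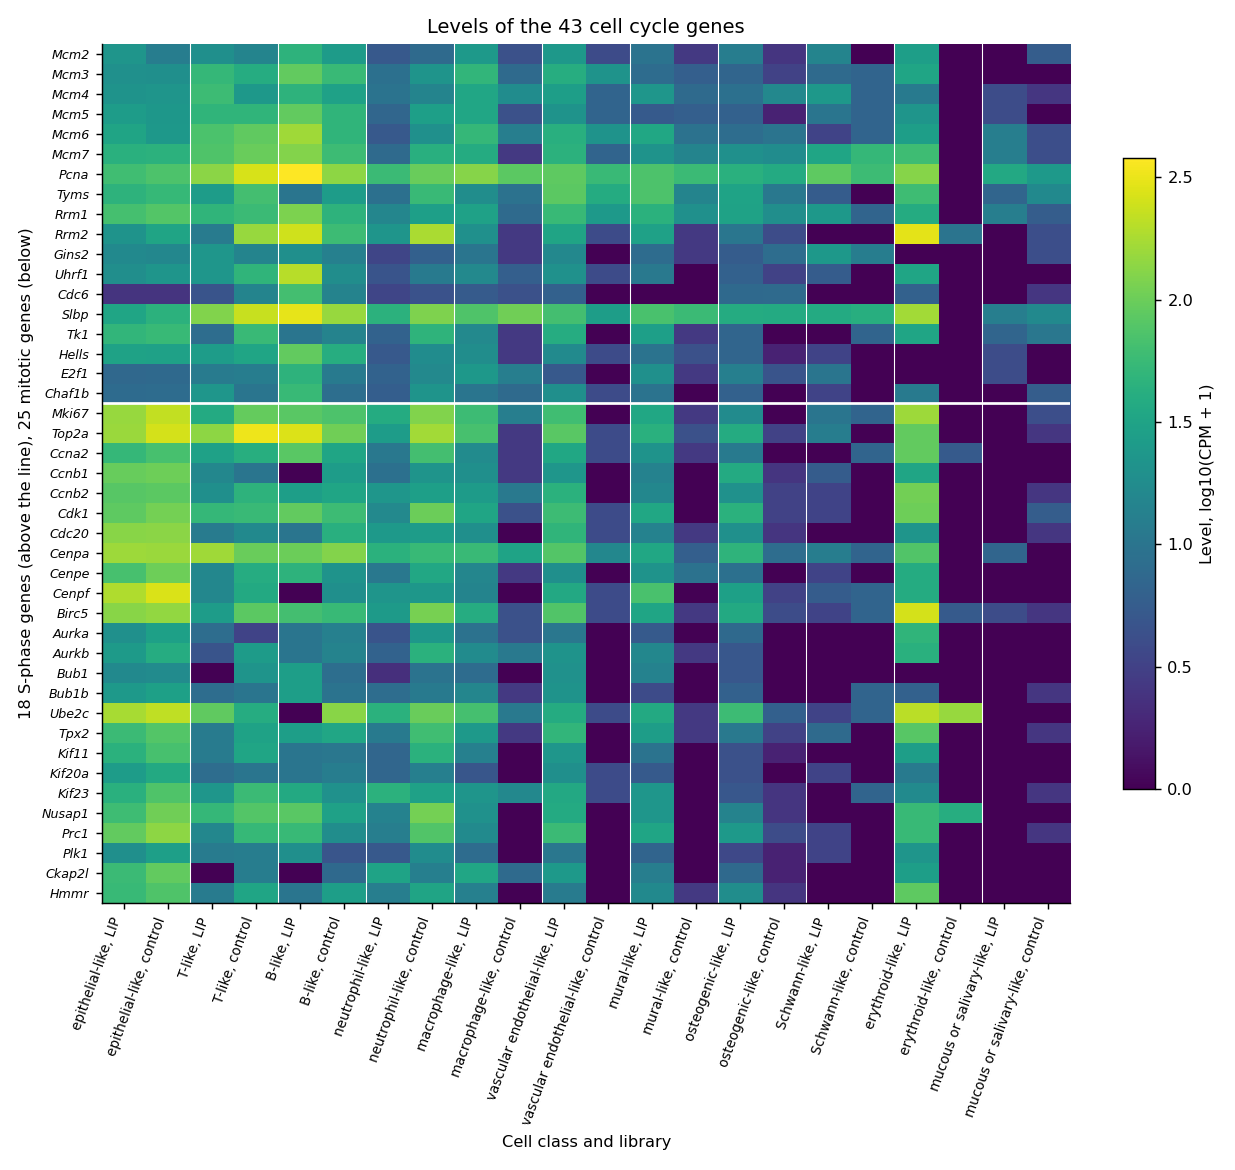
Level of each of the 43 genes, as log10 of CPM plus 1 (colour), in 11 cell classes of the control and LIP libraries. The lower, mitotic genes are near 0 in control vascular endothelial-like, mural-like and osteogenic-like cells, where their sums are 40.6, 30.5 and 39.5 CPM, and present in the same classes of the LIP library.

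Mitotic transcripts were concentrated in few cells. With 3 mitotic UMIs as a limit, 133 of 936 LIP cells (14.2%) and 190 of 883 control cells (21.5%) lay at or above it. The median mitotic gene had 96.8% of its LIP UMIs and 97.9% of its control UMIs in cells that held at least 3 UMIs of other mitotic genes, over ranges of 75.1 to 100% and 87.1 to 100%. For the median S-phase gene these shares were 71.6% and 76.4%, with *Slbp* lowest in both libraries at 49.6% and 52.7%. *Ckap2l* and *Kif23*, which act on the spindle and at cytokinesis, had the lowest shares among mitotic genes in LIP, at 75.1% and 76.1%. Both were spread thinly over neutrophil-like cells, with 49 UMIs in 30 of 325 cells and 73 UMIs in 40 of 325 cells. Across 18 class and library points with at least 20 cells, the level of *Cdk1*, the kinase that starts mitosis, followed the mitotic sum most closely (Pearson r of log2 CPM, 0.97), although it is part of that sum. *Cdc6* followed it least (r = 0.37). These points share libraries and depth, so the coefficients describe likeness only.

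The promoters of the members are shown as a description of their sequences, and no link to the levels in these libraries was tested. Reference windows of 300 bases, from 250 before to 50 after the transcription start (RefSeq, GRCm38.p6), were found for 37 of the 43 members. The cell cycle homology region (CHR, TTTGAA or TTCGAA on either strand) was present in 18 of 22 windows of mitotic genes (81.8%), in 2 of 18 windows of S-phase genes (11.1%) and in 19.2% of all 32851 windows. The CCAAT box was present in 90.9%, 66.7% and 37.4% of the same sets, and both elements together in 81.8%, 11.1% and 7.52%. The strict E2F motif (TTTCGCGC or TTTGGCGC on either strand) was present in 1 of 22 mitotic windows (4.55%), in 5 of 18 S-phase windows (27.8%) and in 0.813% of all windows. A match of letters is a description and not evidence of binding, and a window without a match says nothing about the factor. The 2 mitotic windows with the most CCAAT boxes beside a CHR, and the 2 S-phase windows with the most E2F motifs, are printed 5′ to 3′ on the gene's strand. Capitals mark CHR and CCAAT in *Top2a* (chr11:99024140-99024439, minus strand, 4 CHR and 6 CCAAT) and *Ube2c* (chr2:164769679-164769978, plus strand, 1 CHR and 6 CCAAT). They mark the E2F motif in *Mcm6* (chr1:128359656-128359955, minus strand, 3 matches) and *Mcm5* (chr8:75109259-75109558, plus strand, 2 matches). Each motif also counts when it is read from the other strand, where CCAAT appears as ATTGG and TTTGAA as TTCAAA. In *Ube2c* a pair of CCAAT boxes overlap head to head, and in *Mcm6* and *Mcm5* a pair of E2F motifs on opposite strands overlap.
Top2a: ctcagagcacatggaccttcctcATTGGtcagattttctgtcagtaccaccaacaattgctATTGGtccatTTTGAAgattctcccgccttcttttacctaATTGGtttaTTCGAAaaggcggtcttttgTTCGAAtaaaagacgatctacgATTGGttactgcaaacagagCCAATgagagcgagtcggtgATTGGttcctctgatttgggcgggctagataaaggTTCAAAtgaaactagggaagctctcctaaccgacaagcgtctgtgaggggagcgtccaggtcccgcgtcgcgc
Ube2c: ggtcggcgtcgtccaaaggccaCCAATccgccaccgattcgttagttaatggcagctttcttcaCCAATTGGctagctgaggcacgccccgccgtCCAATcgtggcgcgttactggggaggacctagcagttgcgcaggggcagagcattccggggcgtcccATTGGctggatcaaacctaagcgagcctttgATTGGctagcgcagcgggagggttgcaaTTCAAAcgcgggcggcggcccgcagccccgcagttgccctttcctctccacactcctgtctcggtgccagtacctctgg
Mcm6: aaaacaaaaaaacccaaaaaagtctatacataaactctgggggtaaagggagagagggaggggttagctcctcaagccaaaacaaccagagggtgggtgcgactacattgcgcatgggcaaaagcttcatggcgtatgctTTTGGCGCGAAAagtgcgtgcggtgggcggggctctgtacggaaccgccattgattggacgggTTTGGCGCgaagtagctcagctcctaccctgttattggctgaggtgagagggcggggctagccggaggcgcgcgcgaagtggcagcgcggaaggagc
Mcm5: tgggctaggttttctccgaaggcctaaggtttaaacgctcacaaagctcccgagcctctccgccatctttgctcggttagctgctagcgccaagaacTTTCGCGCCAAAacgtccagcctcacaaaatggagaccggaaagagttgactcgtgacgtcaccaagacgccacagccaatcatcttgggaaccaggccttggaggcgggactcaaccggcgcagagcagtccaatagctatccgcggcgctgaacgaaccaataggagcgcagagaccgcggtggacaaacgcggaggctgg

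Vascular endothelial-like cells, the lining of blood vessels, had far more mitotic UMIs in the LIP library. They held 859 mitotic UMIs in 81 LIP cells (921 CPM, 861 to 985) against 14 in 48 control cells (40.6 CPM, 22.2 to 68.1), a log2 ratio of LIP over control of 4.51 (3.75 to 5.38), or 22.7-fold. As a mean over cells the log2 ratio was 2.67, and with cell cycle genes kept in the clustering 2.95, so no order among the vascular, mural-like and osteogenic-like classes was resolved. All 25 mitotic genes had a higher CPM in the LIP library, and 15 of them had no UMI in the control cells, whereas 52.7% of the 7446 genes tested were higher in LIP. The genes tested were those with at least 20 UMIs in the class. Shares of all genes here and below cover only such genes, also where they stand beside counts over all members. Of the 17 members tested, 17 were at least 2-fold higher (9.24% of all genes tested in this class) and 0 were lower (5.56%). A member that passed this filter through its LIP UMIs alone had to differ, and the count over all 25 avoids that filter. The 25 genes are still not separate observations, since LIP cells with 367, 230 and 220 mitotic UMIs held most of the 859. The same limit holds for the counts over all members in the mural-like, osteogenic-like and macrophage-like classes below, where few cells held most mitotic UMIs. In those classes the filter also limits what the counts of members tested can show.

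Among the kinases and cyclins of mitotic entry, *Cdk1* had 54 UMIs in LIP and 1 in control (log2 ratio 4.32, 1.78 to 9.65) and *Ccnb2*, a B-type cyclin, 41 and 0, at least 5.06-fold higher. *Mki67*, which coats mitotic chromosomes, had 57 and 0 UMIs, at least 7.03-fold higher. *Top2a*, which untangles sister DNA, had 77 and 1 (4.83, 2.31 to 10.2), and *Birc5*, the survivin subunit of the chromosomal passenger complex, 70 and 1 (4.70, 2.17 to 10.0). The spindle organiser *Tpx2* and the midzone protein *Prc1* had 46 and 52 UMIs in LIP and 0 in control. *Cenpa*, the histone that marks centromeres, was the one member with several control UMIs, 71 against 5, and the smallest ratio of those tested against a control above 0 (2.39, 1.10 to 4.06). The named genes act at steps from DNA decatenation to cytokinesis.

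The S-phase genes of vascular endothelial-like cells were also higher in LIP, but less so, with 589 and 74 UMIs (632 and 214 CPM, log2 ratio 1.56, 1.21 to 1.93). All 18 had a higher CPM in LIP, against 52.7% of all genes tested. Of the 12 tested, 10 were at least 2-fold higher (9.24% of all genes) and 0 lower (5.56%). As above, a member that passed the filter through its LIP UMIs alone had to differ. The nucleotide enzymes *Tk1*, thymidine kinase, with 36 and 0 UMIs (at least 4.44-fold), and *Rrm2*, the S-phase subunit of ribonucleotide reductase, with 29 and 1 (3.42, 0.83 to 8.78), differed most. The helicase genes *Mcm2* and *Mcm7* followed (log2 ratios 2.96 and 2.96), while *Mcm3* and *Mcm6* stood at 0.97 (-0.22 to 2.38) and 1.04 (-0.13 to 2.45). *Pcna* and *Slbp* had 81 and 59 UMIs in LIP and 19 and 9 in control, with log2 ratios of 0.66 (-0.08 to 1.46) and 1.28 (0.26 to 2.48).

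Mural-like cells, the pericytes and smooth muscle cells around vessels, held 374 mitotic UMIs in 46 LIP cells (542 CPM) and 18 in 46 control cells (30.5 CPM), a log2 ratio of 4.15 (3.47 to 4.93), which was 2.66 without the highest cell of each library. Again all 25 mitotic genes were higher in LIP, against 52.7% of all genes, and 14 of them had 0 control UMIs. Among those tested, 8 of 8 were at least 2-fold higher (6.5% of all genes) and 0 lower (5.08%). With 18 control UMIs over all 25 genes, members reached the 20 UMIs needed only through LIP UMIs, so this count was largely fixed by the filter. *Cenpf*, a kinetochore protein, had 47 UMIs against 0, at least 13.4-fold higher, and *Ube2c*, the ubiquitin-conjugating enzyme that helps destroy cyclin B, 25 against 1 (4.42, 1.81 to 9.78). The 29 LIP UMIs of *Top2a* came from a single cell. The S-phase sum was 460 against 195 CPM (1.24, 0.93 to 1.56), with 16 of 18 genes higher in LIP, but 1 LIP cell held 165 of the 317 S-phase UMIs. Without the highest cell of each library the levels were 238 and 185 CPM, and with cell cycle genes kept in the clustering the ratio was 0.29. *Tyms*, thymidylate synthase, led the tested genes with more than 3 control UMIs (49 against 8 UMIs, 2.39, 1.30 to 3.68).

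Osteogenic-like cells held 699 mitotic UMIs in 63 LIP cells (464 CPM) and 53 in 120 control cells (39.5 CPM, 29.6 to 51.7), a log2 ratio of 3.55 (3.15 to 3.98). All 25 mitotic genes were higher in LIP, where 40.6% of all genes were. Among those tested, 13 of 13 were at least 2-fold higher (5.38% of all genes) and 0 lower (8.15%). Since the 53 control UMIs were spread over all 25 genes, members passed the filter mostly through LIP UMIs and largely had to differ. *Ube2c* had 88 UMIs against 7 (3.48, 2.38 to 4.84), *Cdk1* 65 against 3 (4.27, 2.66 to 6.58), *Top2a* 57 against 3 (4.08, 2.46 to 6.40) and the cyclin *Ccnb1* 56 against 2 (4.64, 2.72 to 7.72). *Mki67* had 25 against 0, at least 7.41-fold higher. The S-phase sum moved little, 252 against 170 CPM (0.57, 0.33 to 0.81), and 14 of 18 genes were higher. *Tyms* (46 against 13 UMIs, 1.65, 0.74 to 2.67) and *E2f1*, the transcription factor that turns on S-phase genes (18 against 5, 1.68, 0.20 to 3.46), were the 2 of 8 tested that were at least 2-fold higher. *Mcm2*, with 17 against 2 UMIs (2.92, 0.84 to 6.08), fell short of the 20 UMIs needed. *Pcna*, *Slbp* and *Mcm7* stood at 0.22, 0.05 and 0.11 with intervals that included 0.

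The osteogenic-like difference lay in the sub-cluster led by *Bglap* and *Ibsp*, and these genes were not counted cell by cell. Within that sub-cluster the mitotic level was 766 CPM (710 to 826) in 32 LIP cells and 46.3 CPM (23.9 to 80.8) in 20 control cells, and all 6 LIP cells with at least 3 mitotic UMIs were there. In the sub-cluster with fibroblast genes it was 18.05 CPM (8.25 to 34.3) in 24 LIP cells and 34.0 CPM (23.4 to 47.8) in 89 control cells. The vascular difference was present in both vascular sub-clusters, 690 against 43.03 CPM in the one led by *Fabp4* and *Selp* and 1635 against 33.5 CPM in the one led by the arterial genes *Sema3g* and *Sox17*, although a single cell gave 367 of the 373 UMIs of the latter. Among mural-like cells it was 955 against 49.7 CPM in the *Rgs5* sub-cluster, which holds pericyte genes, and 102 against 22.0 CPM in the *Tagln* and *Myh11* sub-cluster of smooth muscle genes. Single cells weighed here too. In LIP the highest *Rgs5* cell held 262 mitotic UMIs and the next 60, and the only smooth muscle cell with at least 3 mitotic UMIs held 29.

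**Figure D3:**
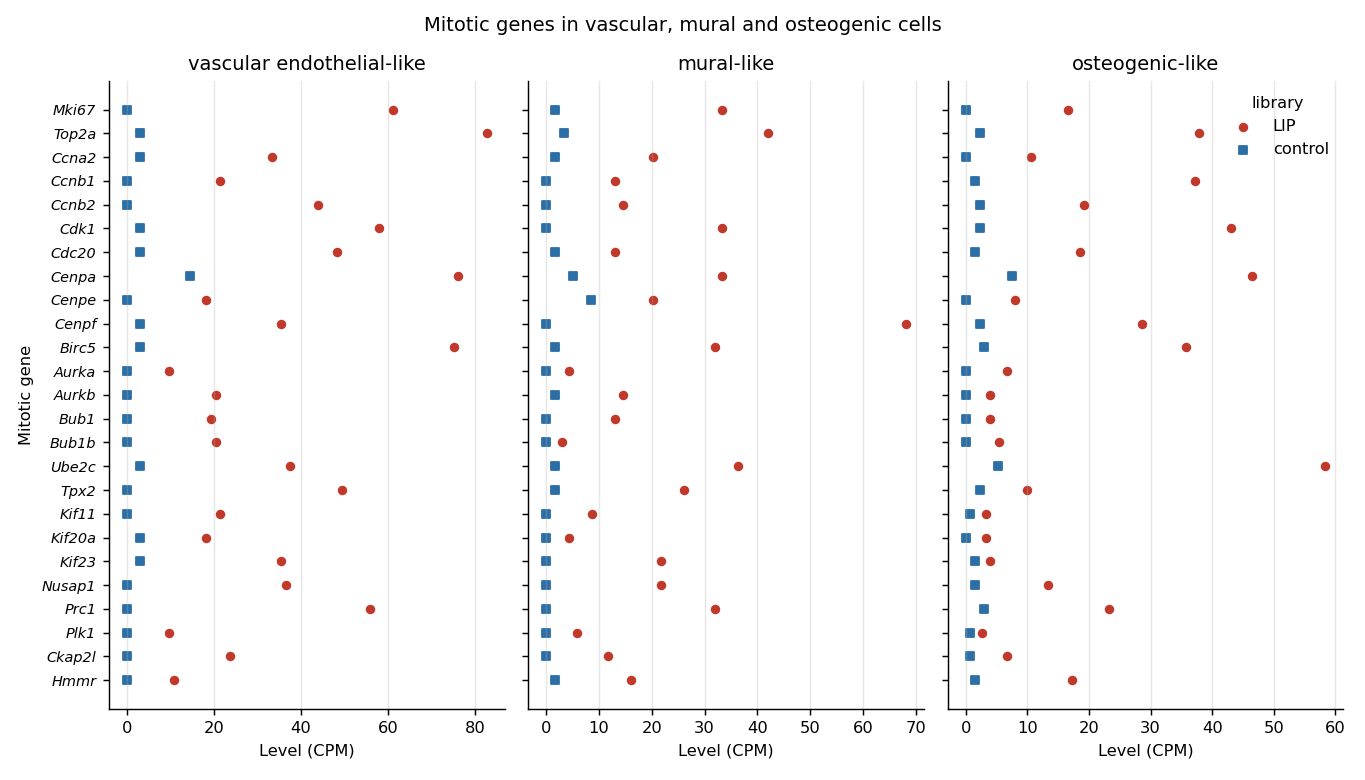
CPM of each of the 25 mitotic genes in vascular endothelial-like, mural-like and osteogenic-like cells, LIP library against control library. Every gene lies higher in LIP in all 3 classes, and 15, 14 and 8 of the genes have 0 UMIs in the control cells.

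These levels came from few cells. In vascular endothelial-like cells, 6 of 81 LIP cells (7.41%, 2.77 to 15.4) had at least 3 mitotic UMIs and 0 of 48 control cells did, which allows a share of up to 6.25%. The 6 cells held 367, 230, 220, 9, 8 and 4 mitotic UMIs and 132, 47, 107, 30, 48 and 5 S-phase UMIs, so 3 cells gave nearly the whole sum. In mural-like cells 5 of 46 LIP cells (10.9%, 3.62 to 23.6) and 0 of 46 control cells (up to 6.52%) reached the limit, with 262, 60, 29, 3 and 3 mitotic UMIs. In osteogenic-like cells it was 6 of 63 LIP cells (9.52%, 3.58 to 19.6) and 1 of 120 control cells (0.833%, 0.0211 to 4.56), with 341, 220, 53, 25, 24 and 5 mitotic UMIs in LIP and 3 in the control cell. Pooled over the 3 classes, a grouping chosen after these values were seen, 17 of 190 LIP cells (8.95%, 5.30 to 13.9) stood against 1 of 214 control cells (0.467%, 0.0118 to 2.58), which describes these 2 libraries and not the conditions. At a common depth of 5000 UMIs per cell, with 23 LIP and 41 control cells too shallow to enter, 13 of 167 (7.78%, 4.21 to 12.9) stood against 0 of 173 (up to 1.73%). The limit of 3 UMIs was also reached with few UMIs in other cells, since 11 of 277 LIP cells (3.97%) of the *Acod1* neutrophil-like sub-cluster did so, with at most 5 UMIs, whereas 0 of 11 and 0 of 16 mucous or salivary-like cells did.

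Markers of their class were detected in the stromal cells with mitotic transcripts, but at lower shares in several of the richest cells. In the 6 vascular cells the vascular markers made up 0.969% of UMIs, against 1.11% in the other LIP vascular cells, and in the 6 osteogenic-like cells the osteogenic markers made up 11.3% against 10.99%. In the 5 mural-like cells the mural markers were lower, 2.08% against 4.68%. The richest vascular cell held 0.535% of vascular markers, and the 2 richest mural-like cells 1.26% and 0.804% of mural markers. Epithelial markers made up 0.0191%, 0.0116% and 0.0164% of their UMIs, and none of the 17 cells was marked as a doublet. Their median doublet scores were 0.0388, 0.0713 and 0.0944 against 0.0226, 0.0444 and 0.0584 in the other LIP cells of the class, so a mixture of cells was not tested beyond these values. They were deeper than their neighbours, with a median of 26717, 27923 and 29157 UMIs against 8343, 12177 and 20049. Of the 17 cells, 16 also had at least 3 S-phase UMIs, as did 84 of the 173 other, shallower LIP cells of these classes. In the remaining cells, which hold under 3 mitotic UMIs each by construction, the level was 27.5, 31.3 and 23.6 CPM in LIP and 40.6, 30.5 and 37.9 CPM in control.

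**Figure D4:**
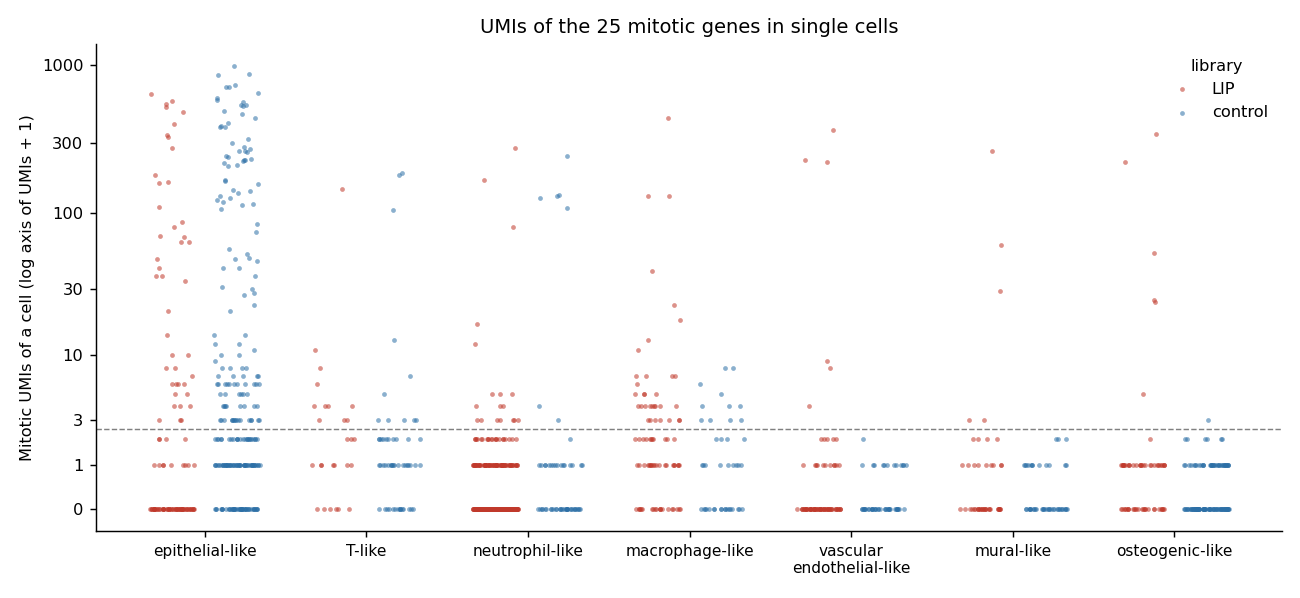
Mitotic UMIs of each cell (log axis of UMIs plus 1) in 7 classes, LIP library in red and control library in blue, with a dashed line just below 3 UMIs. In the vascular endothelial-like, mural-like and osteogenic-like classes 17 LIP cells and 1 control cell lie above the line, while epithelial-like cells lie above it in both libraries.

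Macrophage-like cells held 956 mitotic UMIs in 84 LIP cells (617 CPM, 579 to 657) and 68 in 42 control cells (115 CPM, 89.1 to 146), a log2 ratio of 2.43 (2.07 to 2.80). All 25 mitotic genes were higher in LIP, against 53.5% of all genes, and 16 of 19 tested were at least 2-fold higher (10.1% of all genes) and 0 lower (5.81%). *Top2a* differed most, 104 UMIs against 1 (5.31, 2.80 to 10.6), and *Ube2c* and *Mki67* had 100 against 6 (log2 ratio 2.67) and 90 against 7 (2.30). Helicase genes were higher in LIP too. *Mcm3* had 76 UMIs against 4 (2.86, 1.45 to 4.77), *Mcm6* 80 against 7 (2.13, 1.02 to 3.49) and *Mcm5* 51 against 2 (3.29, 1.36 to 6.37), while *Mcm4* stood at 0.96 (-0.03 to 2.11). The S-phase sum was 588 against 282 CPM (1.06, 0.82 to 1.31), with 17 of 18 genes higher, and 11 of 15 tested at least 2-fold. *Slbp*, which binds histone mRNA, was the exception at -0.53 (-0.99 to -0.06), and *Pcna* stood at 0.61 (0.15 to 1.08). The highest LIP cells held 437, 131, 130, 40, 23 and 18 mitotic UMIs, and the highest control cell held 8. The share of cells with at least 3 mitotic UMIs overlapped between libraries, 39.3% (28.8 to 50.5) and 26.2% (13.9 to 42.04), whereas 8 LIP cells held more than the highest control cell. After thinning to 5000 UMIs it was 9 of 77 (11.7%, 5.49 to 21.0) and 1 of 35 (2.86%, 0.0723 to 14.9).

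Epithelial-like cells moved the other way and little. They held 5495 mitotic UMIs in LIP and 18701 in control, 1994 against 2660 CPM, a log2 ratio of -0.42 (-0.46 to -0.37). Of the 25 mitotic genes 24 were lower in LIP, where 47.8% of all genes were higher, and 0 of 25 passed 2-fold in either direction (3.86% of all genes did so upwards and 2.72% downwards). The lowest ratios were those of *Kif23* and *Nusap1*, of the central spindle, at -0.80 (-1.11 to -0.51) and -0.79 (-1.04 to -0.54), and *Top2a* at -0.74 (-0.89 to -0.59, 155 against 258 CPM). *Cdc20*, the activator of the anaphase-promoting complex, stood at -0.01 (-0.19 to 0.16), *Ccnb1* at -0.08 (-0.29 to 0.13), *Ccnb2* at -0.06 (-0.29 to 0.16) and *Cenpa* at 0.03 (-0.14 to 0.19), while *Cdk1* and *Ube2c* lay between, at -0.36 (-0.58 to -0.15) and -0.31 (-0.46 to -0.16). The S-phase sum was 508 against 552 CPM (-0.12, -0.21 to -0.03), and the ratio turned to 0.40 with cell cycle genes kept in the clustering. *Mcm2* was higher in LIP (58 against 81 UMIs, 21.1 against 11.5 CPM, 0.87, 0.36 to 1.37), as was *Mcm6* (0.46, 0.07 to 0.85), and *Rrm2* was lower (-0.64, -1.10 to -0.21).

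The sub-cluster led by *Aspm* held most of the epithelial mitotic UMIs, 4780 of 5495 in LIP and 17265 of 18701 in control. Outside it, the level in LIP was 327 against 308 CPM (295 to 361 and 289 to 327) in the sub-cluster led by *BC037156* and *Krt6b* and 350 against 226 CPM (313 to 390 and 204 to 249) in the one led by *Pappa* and *Fst*, and in the last sub-cluster 15 LIP cells held 0 and 14 control cells 2 mitotic UMIs. The *Aspm* sub-cluster itself had 7942 CPM in 14 LIP cells and 9271 CPM in 48 control cells. At least 3 mitotic UMIs were found in 43 of 116 LIP cells (37.1%, 28.3 to 46.5) and 123 of 246 control cells (50%, 43.6 to 56.4), and after thinning to 5000 UMIs in 31.5% and 31.9%, with 27 and 20 cells left out. Summed suprabasal keratinocyte genes were at 6483 CPM in cells at or above the limit and 8997 CPM in the other epithelial-like cells of LIP, and at 10229 and 15107 CPM in control. Per cell the order did not hold in LIP, where the suprabasal share of basal and suprabasal UMIs had a median of 22.8% in cells at or above the limit and 19.0% in the others, against 26.2% and 26.9% in control. The sub-cluster led by *Cryba2*, which had no cell at the limit, had medians of 87.2% and 75.1%. Summed basal keratinocyte genes were at 20785 against 23357 CPM in LIP and 21258 against 24356 CPM in control. That difference lay mostly in *Krt14*, at 12457 against 16004 and 12674 against 15920 CPM. *Krt5* (5612 against 5148 CPM in LIP) and *Krt15* (1017 against 388 CPM in LIP) went the other way in both libraries, as did *Itgb4* and *Col17a1* in control. Against the suprabasal sum, *Lgals7* in LIP and *Krt1* and *Krt10* in control were higher in cells at or above the limit.

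Neutrophil-like cells had lower levels in LIP, 440 against 1317 mitotic CPM (715 and 766 UMIs, log2 ratio -1.58, -1.73 to -1.43) and 211 against 724 S-phase CPM (-1.78, -1.99 to -1.57). With cell cycle genes kept in the clustering the mitotic ratio turned to 0.40 (0.15 to 0.66). Of the 25 mitotic genes 23 were lower, as were all 18 S-phase genes, where 44.7% of all genes were higher in LIP. Among those tested, 14 of 20 mitotic and 8 of 11 S-phase genes were at least 2-fold lower (10.8% of all genes). These genes are not separate observations, since few cells held most of their UMIs. *Nusap1* and *Top2a* stood at -3.07 (21 and 63 UMIs, -3.85 to -2.33) and -2.69 (42 and 97 UMIs, -3.25 to -2.15), and *Rrm2* at -3.08 (34 and 103 UMIs, -3.69 to -2.51). *Ckap2l* was the 1 mitotic gene at least 2-fold higher (13.1% of all genes), at 1.33 (0.17 to 2.71), and *Kif23* stood at 0.62 (-0.16 to 1.48). The makeup of the class moved with this difference. Within the sub-cluster of granule genes *Ngp* and *Camp* the mitotic level was 909 CPM (836 to 986) in 48 LIP cells and 1649 CPM (1533 to 1771) in 27 control cells, and within the *Acod1* sub-cluster 140 CPM (118 to 166) and 96.5 CPM (49.9 to 169). Summed over the cells of the class with at least 3 mitotic UMIs, late granule genes were higher, 75270 against 20418 CPM in LIP and 99334 against 43535 CPM in control. Early granule genes were higher too, 149 against 4.36 CPM in LIP. Deep cells weigh most in these sums, with up to 41093 UMIs in LIP. Most of the 18 LIP cells at or above the limit lay in the *Acod1* sub-cluster, with at most 5 mitotic UMIs, so the sums need not describe each cell. The late sum was mostly *Camp* and *Ngp*, and the late granule gene *Mmp8* went the other way, 40.3 against 824 CPM in LIP and 562 against 1892 CPM in control. Few cells carried the sums here too, with 276, 167 and 80 mitotic UMIs in the highest LIP cells and 244, 133, 130, 127 and 107 in the highest control cells. Each of these highest control cells had a doublet score of 0.131, against a median of 0.0290 in control cells below the limit. In LIP the median was 0.0444 at or above the limit and 0.0316 below it. No cell at or above the limit was marked as a doublet, and a mixture of cells was not tested beyond these values.

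T-like cells held 761 CPM of mitotic genes in 27 LIP cells and 1246 CPM in 54 control cells (-0.71, -0.95 to -0.48), and 772 against 1258 CPM of S-phase genes (-0.70, -0.94 to -0.47). Of the tested mitotic genes 8 of 13 were at least 2-fold lower (8.64% of all genes) and *Ube2c* alone was at least 2-fold higher (8.97% of all genes), at 1.18 (0.22 to 2.17), with all its LIP UMIs in 1 cell. *Rrm2* had 3 UMIs in LIP and 66 in control (-3.78, -6.09 to -2.17). One LIP cell held 146 of the 209 mitotic UMIs, and 3 control cells held 186, 181 and 104 of 549. Without the highest cell of each library the mitotic levels were 253 and 869 CPM, and with cell cycle genes kept in the clustering both ratios turned, to 1.88 for mitotic and 0.46 for S-phase genes. B-like cells differed by 0.26 (-0.02 to 0.54) for mitotic genes, 1094 against 912 CPM, and by 1.40 (1.18 to 1.61) for S-phase genes, 2098 against 795 CPM. One of the 20 LIP cells held 107 of 121 mitotic and 192 of 232 S-phase UMIs. Without the cell of each library richest in mitotic and S-phase UMIs together, the mitotic ratio was -2.39 and the S-phase ratio -0.41. All 27 LIP UMIs of *Rrm2* lay in 1 cell, and the 22 of *Uhrf1*, which copies DNA methylation marks at the fork, in 2 cells.

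Erythroid-like cells, few in both libraries, differed in kind. In LIP 2 of 10 cells held 179 and 115 of 315 mitotic and 106 and 69 of 177 S-phase UMIs. In control the 45 mitotic UMIs of 12 cells were mostly *Ube2c* (34 UMIs, 151 CPM) and *Nusap1* (9 UMIs), with 1 UMI each of *Ccna2* and *Birc5* and 0 of the other 21 mitotic genes, and the S-phase UMIs were 2 of *Rrm2*. Schwann-like cells showed no difference beyond counting error for mitotic genes (29 and 8 UMIs, 0.53, -0.63 to 1.87) or S-phase genes (122 and 34 UMIs, 0.52, -0.04 to 1.11), and no mitotic gene reached 20 UMIs. Of the 3 S-phase genes tested, 0 were at least 2-fold higher (5.91% of all genes) or lower (7.22%). The plot of ratios by class sets the sums of all these classes side by side.

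**Figure D5:**
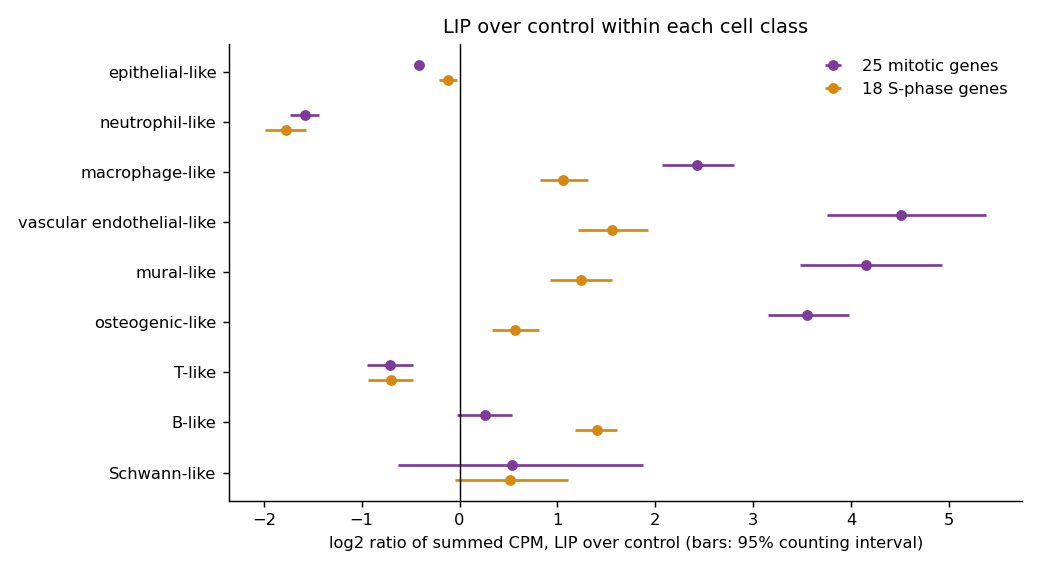
Log2 ratio of LIP over control of the summed CPM of mitotic and of S-phase genes in 9 classes, with exact 95% counting intervals. Mitotic ratios lie at 4.51, 4.15, 3.55 and 2.43 in vascular endothelial-like, mural-like, osteogenic-like and macrophage-like cells, and at -0.42, -0.71 and -1.58 in epithelial-like, T-like and neutrophil-like cells.

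Other cell cycle genes moved with the members in part. Of 32 further mitotic genes, 15 of 17 tested were at least 2-fold higher in LIP vascular endothelial-like and 5 of 6 in mural-like cells. The counts were 8 of 13 in osteogenic-like and 7 of 12 in macrophage-like cells, with 0 lower in each class. Of all genes tested, 9.24%, 6.5%, 5.38% and 10.1% were higher by this limit and 5.56%, 5.08%, 8.15% and 5.81% lower. Here too a gene that passed the filter through its LIP UMIs alone had to differ. Over all 32 the CPM was higher in 30, 30, 29 and 29, against 52.7%, 52.7%, 40.6% and 53.5% of all genes. *Pttg1*, 1 of the 32, was lower in LIP osteogenic-like (-0.87, -1.34 to -0.41) and macrophage-like cells (-0.83, -1.49 to -0.16). *Cks2*, a small subunit of cyclin-dependent kinases, had 101 UMIs in 21 vascular LIP cells and 1 in control (5.22, 2.71 to 10.54). *Stmn1*, which destabilises microtubules, stood at 2.67 (1.90 to 3.56), 3.20 (2.31 to 4.24) and 2.41 (1.76 to 3.11) in vascular, mural-like and osteogenic-like cells. Among the 9 inhibitors of the cycle, 0 of 7 tested were at least 2-fold higher and 2 at least 2-fold lower in vascular cells (9.24% and 5.56% of all genes), 0 and 3 of 7 in mural-like cells (6.5% and 5.08%), 1 and 1 of 7 in osteogenic-like cells (5.38% and 8.15%) and 3 and 0 of 5 in neutrophil-like cells (13.1% and 10.8%). Counts of 0 or 1 are near these shares. *Cdkn1c*, which holds cells in G1, had 29 UMIs in LIP and 62 in control vascular cells (-2.53, -3.22 to -1.87) and stood at -1.09 (-1.74 to -0.46) in mural-like cells. *Btg2*, an antiproliferative gene, stood at -1.15 (-1.52 to -0.79) and -1.38 (-1.54 to -1.21). *Cdkn1a*, the p21 inhibitor, was lower in LIP mural-like (-1.54, -1.88 to -1.21) and osteogenic-like cells (-1.004, -1.28 to -0.74) and higher in neutrophil-like cells (2.32, 1.81 to 2.86, 473 UMIs in 122 of 325 cells). The makeup of the osteogenic-like and neutrophil-like classes differed between the libraries, and these ratios cover each class as a whole. The G1 cyclins *Ccnd1* and *Ccnd2* were lower in LIP macrophage-like cells, at -0.90 (-1.26 to -0.52) and -1.48 (-2.11 to -0.86).

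Outside the lists of cell cycle genes, 13123 genes were compared with the mitotic sum over the same 18 points. The 10 most alike were *Dlgap5* (r = 0.90), *Kifc1*, *Pclaf*, *Hist1h2ap*, *Plk4*, *Kif15*, *Cenpk*, *Kpna2*, *Dbf4* and *Cep55* (r = 0.84). Most of them are themselves known for roles at the spindle, the centrosome, the replication fork or in histone supply.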

How the data were processed

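The authors collected cells of digested periodontal tissue, made 1 library per condition and counted reads against mm10 with Cell Ranger (3.1.0 per the file headers, another version in the study's methods). The deposited values were raw UMI counts per gene and barcode, with no further filter. Cells with 200 to 7500 genes, at most 60000 UMIs and at most 10% mitochondrial UMIs were kept, following the study's methods. Of the variable features, 2000 were selected, 102 cell cycle genes were removed, and the libraries were integrated with Seurat 5.3.0 in R 4.3.3 and clustered over 30 dimensions at a resolution of 0.1, with sub-clusters at 0.2. Names were rebuilt from 20 marker lists (a marker in 25% of cells and 2-fold higher, 3 needed) and may differ from the study's, and clusters are no independent evidence for their leading genes. Doublets were scored with Scrublet (scanpy 1.11.5).

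UMIs were summed per class and library (numpy 2.4.6, scipy 1.17.1, pandas 2.3.3, Python 3.11.15), scaled to 1000000 UMIs of the class, and given with exact Poisson, Clopper-Pearson or conditional 95% intervals, which treat UMIs as independent. The sums cannot separate the number of dividing cells from RNA per cell. A count of 0 was set to 3 UMIs over the class for a lower bound. Genes with at least 20 UMIs in a class were tested against a 2-fold limit. Correlations used log2(CPM + 10) and genes with at least 50 UMIs. The calculations were checked on simulated counts with independent UMIs, which does not cover sums held by few cells. Figures were drawn with matplotlib 3.10.9. The sums and the map of all genes cover all 43 members, and the text names part of them. Other cell cycle genes were named from the 3 highest and 3 lowest of a class with at least 50 UMIs, but not all of these. Also named are the 10 genes most like the mitotic sum and leading genes of clusters. Members and lists were chosen with earlier results of these data known. Alternatives covered clustering, naming, cell limits, doublets, the highest cell, weighting, scaling, thinning depth and gene sets. The authors' own names of cells were not used here.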

Additional observations from a re-analysis of the deposited data

Results flagged for a closer look

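Barcodes left out by the upper limits of 60000 UMIs or 7500 genes carried mitotic transcripts that no comparison above used. In the LIP library 25 such barcodes held 975 CPM of mitotic genes (937 to 1014), 19.8% of the library's mitotic UMIs, and 16 of them had at least 3 mitotic UMIs. In the control library 16 such barcodes held 2560 CPM (2477 to 2644), 14.03% of the mitotic UMIs, and 11 had at least 3. All kept cells stood at 928 CPM (910 to 946) in LIP and 1584 CPM (1563 to 1605) in control. The barcodes left out were above this level in control, whereas the intervals overlapped in LIP. Whether these barcodes hold 1 cell each was not tested.

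The mitotic log2 ratio of LIP over control took opposite signs in different classes. It was 4.51 in vascular endothelial-like, 4.15 in mural-like, 3.55 in osteogenic-like and 2.43 in macrophage-like cells, and -0.42 in epithelial-like, -0.71 in T-like and -1.58 in neutrophil-like cells. With 1 library per condition the difference between classes was not tested, and only the counting intervals separate the values.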

How the results depend on the processing

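No paired analysis was possible because each condition has 1 library, and for the same reason no library could be left out. The mitotic ratios of epithelial-like, neutrophil-like, macrophage-like, vascular, mural-like and osteogenic-like cells kept their sign in 13 of 13 alternatives, except in neutrophil-like cells, where 12 of 13 did. With cell cycle genes kept among the variable features the neutrophil-like ratio turned to 0.40, and the others were -0.37 (epithelial-like), 2.95 (vascular), 2.52 (mural-like) and 3.04 (osteogenic-like). That clustering left 44 of 148 cells with at least 10 mitotic UMIs without a class. Among them were 4 control neutrophil-like cells with 614 mitotic UMIs and 3 control T-like cells with 471, but no LIP cell of these classes. In LIP they included 2 vascular cells with 587 mitotic UMIs. Without the cell richest in cell cycle UMIs of each class and library the ratios were -0.50, -1.80, 1.53, 3.70, 2.66 and 2.67 in epithelial-like, neutrophil-like, macrophage-like, vascular, mural-like and osteogenic-like cells. As a mean over cells of CPM per cell they were -0.79 (epithelial-like), 1.92 (macrophage-like), 2.67 (vascular), 2.91 (mural-like) and 2.81 (osteogenic-like). With no upper limits on genes and UMIs they were -0.74 (epithelial-like), -1.32 (neutrophil-like), 2.88 (macrophage-like) and 4.05 (osteogenic-like). A mitochondrial limit of 5% gave -0.96 (epithelial-like), 5.41 (vascular) and 5.14 (mural-like). Naming by marker score gave -0.51 in epithelial-like cells, 15 dimensions gave 2.87 in macrophage-like cells, and a total without the 50 most abundant genes gave -1.75 in neutrophil-like cells. Without *Mki67*, *Top2a* and *Ccna2* the ratio was -0.37 in epithelial-like and -1.39 in neutrophil-like cells. In all, 50 of these values lay within the counting interval of the reported value, 27 outside it, and 1 had the opposite sign.

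The B-like S-phase ratio of 1.40 changed sign under 5 alternatives, to -0.061 with cell cycle genes kept, -0.33 at a resolution of 0.05, -1.04 with 15 dimensions, -0.68 with a minimum of 500 genes and -0.41 without the highest cell. The T-like mitotic ratio kept its sign in 11 of 13 alternatives and was 1.88 with cell cycle genes kept, and the B-like mitotic ratio kept its sign in 5 of 13. The epithelial-like and T-like S-phase ratios each kept their sign in 12 of 13, turning to 0.40 and 0.46 with cell cycle genes kept. Except for the changes of cell set or sum that each alternative makes, the cause of these shifts was not tested. Among other values, 817 lay within the counting interval and 324 outside it. The 5 sign changes counted among values of at least 2-fold were those of the B-like S-phase ratio given above. Thinning the share of cells with at least 3 mitotic UMIs to 5000 UMIs was chosen after seeing the data. The number of cells limits all shares, and 0 of 48 vascular control cells allows a share of up to 6.25% by 3 counts over the total.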
